A study of Mus musculus with 1183 samples.

Results

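Toll-like receptors are a family of membrane proteins that recognise molecules of microbes. The 10 members described here are Tlr1, Tlr2, Tlr6, Tlr4, Tlr5, Tlr3, Tlr7, Tlr8, Tlr9 and Tlr13, taken by symbol from a table of 18072 genes, and all 10 were in it. They were followed across the labelled cell subtypes of single immune cells, which came from the distal lung of 2 mice aged 7 postnatal days. Both animals were exposed to hyperoxia, that is, to more oxygen than air holds, a treatment that injures the growing lung, and samples at normal oxygen were not analysed here. Cells had been sorted by flow cytometry into plates and sequenced with a Tn5 transposase protocol. The female animal gave 598 cells and the male 585, so every value below has 2 animals behind it, and a difference of sex cannot be told apart from one of animals. The titles of the cells carry a code that is read here as the sequencing run, though the titles do not say what it means. Among the plates with nearly all cells, plate 1 of the female was by this code in a sequencing run without cells of the male. Plate 2 of the female shared its run with plates 1 and 2 of the male. Where plates are summed, a difference between the animals can therefore also be one of run. The labels give no genotype or strain.

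The family divides by where its members meet their ligands. Tlr1, Tlr2, Tlr4, Tlr5 and Tlr6 sit mainly on the cell surface. Tlr2 pairs with Tlr1 or Tlr6 to bind bacterial lipopeptides, Tlr4 binds lipopolysaccharide with the help of Cd14 and Ly96, and Tlr5 binds flagellin. Tlr3, Tlr7, Tlr8, Tlr9 and Tlr13 act in endosomes, to which the protein Unc93b1 delivers them, and bind nucleic acids: double-stranded RNA for Tlr3, single-stranded RNA for Tlr7 and Tlr8, unmethylated DNA for Tlr9 and bacterial ribosomal RNA for Tlr13. Nearly all signal through the adaptor Myd88, while Tlr3 uses Ticam1 and Tlr4 uses both. In the lung, macrophages, dendritic cells and neutrophils are known as the main carriers of the family.

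The labels name 16 subtypes. Mac I was 1 cell and entered no test, and the other 15 gave 30 libraries when counts were summed by animal, with 6024429 to 235566546 reads. Cells had a median of 1100966 reads. Against lists of 4 marker genes each, 13 of 15 subtypes had at least 3 markers at their highest level among the subtypes. The exceptions were Mac II, with 1 of 4 (Itgax), and mast cell II, with 0 of 4. Mac III held the alveolar macrophage genes Car4 and Marco, Mac IV the complement genes C1qa, C1qb and C1qc, Mac V the monocyte genes Plac8, Ly6c2 and Ace, and DC I the genes Xcr1 and Clec9a of cross-presenting dendritic cells. Other markers of these lists peaked elsewhere: Chil3 of Mac III in neutrophils, Csf1r of Mac IV in Mac V and Ccr2 of Mac V in basophils. Il4i1, on the DC III list, was highest in mast cells. Levels are given as CPM, reads per 1000000 reads of the summed library, always first for the female and then for the male. The share of cells with a receptor is the share with at least 1 read after each cell was thinned to 100000 reads, and its exact Clopper-Pearson 95% interval covers counting error alone. Where the labels of the subtypes rest on expression in these same cells, differences between subtypes are not independent of how the cells were named, and how far the receptors entered the naming was not tested.

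The 250 bases before the start of 3 members are shown because these 3 differed between paired subtypes below and their windows hold at most 5 bases of an annotated exon of the gene. They come from the RefSeq promoter table, build GRCm38.p6, are written 5′ to 3′ on the strand of the gene, and have in capitals any match to 3 motifs searched on both strands: GAGGAAGT, of the type bound by the myeloid factor PU.1, GAAA followed after any 2 bases by GAAA, of the interferon-response type, and GGGA followed after any 4 bases by CC, of the NF-κB type. Among all 32851 promoters of the table, 2.44% hold the first, 2.98% the second and 17.6% the third.
Tlr1, chr5:64933559-64933808, minus strand: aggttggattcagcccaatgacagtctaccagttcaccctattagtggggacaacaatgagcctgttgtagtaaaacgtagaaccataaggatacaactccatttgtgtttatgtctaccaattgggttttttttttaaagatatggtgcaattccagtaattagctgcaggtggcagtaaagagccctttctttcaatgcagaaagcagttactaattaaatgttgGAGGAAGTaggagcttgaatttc
Tlr5, chr1:182954538-182954787, plus strand: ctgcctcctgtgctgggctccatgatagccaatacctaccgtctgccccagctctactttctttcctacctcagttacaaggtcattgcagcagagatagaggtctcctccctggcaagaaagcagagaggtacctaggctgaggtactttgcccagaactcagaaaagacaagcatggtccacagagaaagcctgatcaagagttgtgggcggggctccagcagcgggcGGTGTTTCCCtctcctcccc
Tlr9, chr9:106222348-106222597, plus strand: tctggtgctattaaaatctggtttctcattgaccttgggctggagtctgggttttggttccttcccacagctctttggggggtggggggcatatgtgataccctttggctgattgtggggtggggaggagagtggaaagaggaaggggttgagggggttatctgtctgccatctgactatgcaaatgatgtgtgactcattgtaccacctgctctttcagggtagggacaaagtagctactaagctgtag
The capitals in the Tlr1 window are GAGGAAGT, starting 23 bases before the start of the gene. Those in the Tlr5 window are the motif of the NF-κB type on the opposite strand, starting 20 bases before the start. The Tlr9 window holds none of these letters. Of the 10 members, 8 were in the table, all but Tlr4 and Tlr7. The second windows listed for Tlr1 and Tlr6 hold none of the motifs. The first window of Tlr6 holds the motif of the interferon-response type at 2 overlapping positions. The windows of Tlr2 and Tlr3 hold the motif of the NF-κB type, and those of Tlr8 and Tlr13 none of the 3. A match is a description of the letters and not a bound site.

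The family was carried mostly by the subtypes labelled Mac II to Mac V and by neutrophils, with Tlr3 in DC I and Tlr2 in DC II beside them. In the fit of all 15 subtypes, edgeR's quasi-likelihood F test called 8 of the 10 members as unequal between subtypes (n = 2 animals per subtype, Benjamini-Hochberg adjustment over 15600 genes). The same test called 34.3% of all genes tested. Adjusted p was 0.000192 for Tlr7, 0.000223 for Tlr2, 0.000581 for Tlr3, 0.000642 for Tlr4, 0.00355 for Tlr8 and for Tlr5, 0.0121 for Tlr13 and 0.0127 for Tlr1. Tlr9, at 0.0535, and Tlr6, at 0.0756, missed the threshold of 0.05. Tlr1 lost its call when cells were thinned before summing (adjusted p 0.0556), Tlr13 without NK cell, IL cell and mast cell II (0.0505) and Tlr5 with DESeq2 (0.355).

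**Figure D1:**
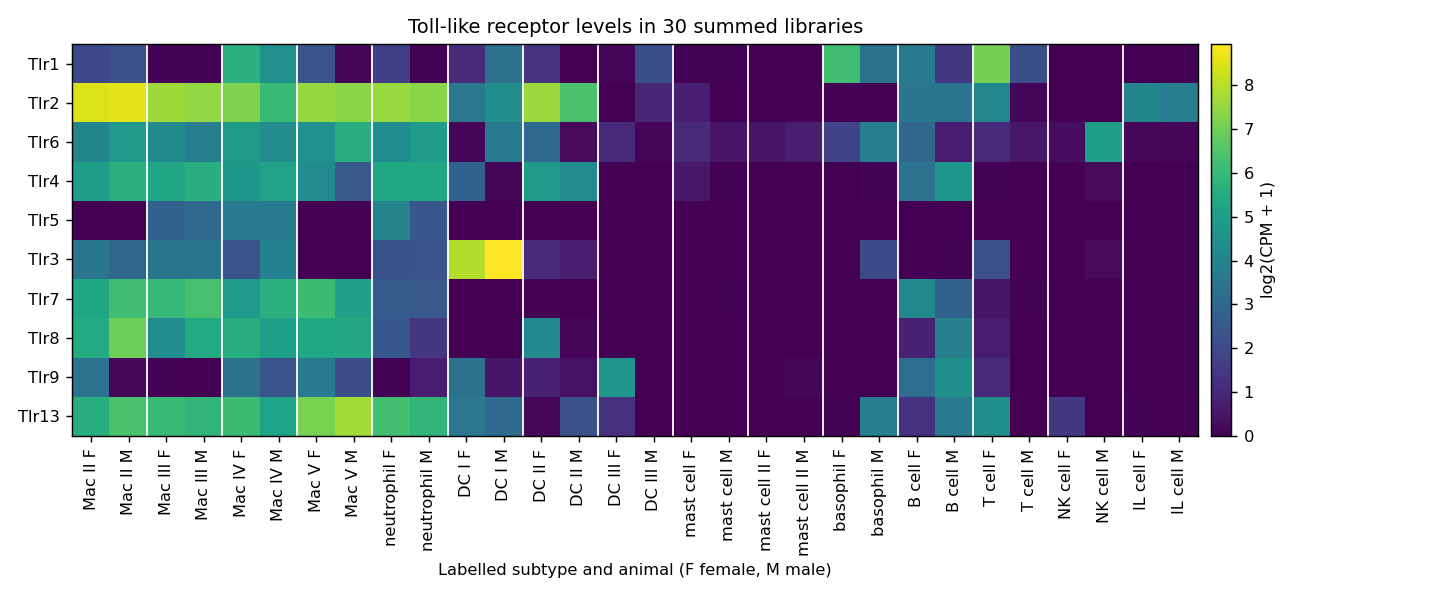
Level of each receptor (rows) as log2(CPM + 1), by colour, in the 30 libraries summed per subtype and animal (columns). Bright cells gather in the Mac and neutrophil columns, with Tlr2 in DC II beside them. Tlr3 is brightest in DC I at 242.1 and 493 CPM, and the mast cell columns are dark. Tlr1 is also bright in the T cells (135.9 CPM) and basophils (72.9 CPM) of the female.

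Among the receptors of lipopeptides, Tlr2 reached the highest levels. In Mac II it stood at 344.1 CPM (female) and 379.7 CPM (male). In Mac III it was 195.9 and 177.8 CPM, in neutrophils 189.4 and 162.9 CPM, in Mac V 184.3 and 163.3 CPM, in DC II 191.7 and 83.1 CPM and in Mac IV 149.5 and 65.2 CPM. In the summed libraries Mac II lay above every other subtype in both animals, and the ranges of the next 5 subtypes overlapped from each to the next. Below them came DC I at 10.6 and 19.8 CPM, and in basophils, NK cells and mast cell II there were 0 reads. The first place of Mac II did not hold on every plate. In the female, Mac II stood at 108.5 CPM on plate 1 (9 cells) and 423.2 CPM on plate 2 (18 cells). On plate 1 neutrophils stood at 289.8 CPM, Mac III at 234.2 CPM, Mac IV at 209.1 CPM, Mac V at 178.6 CPM and DC II at 103.9 CPM. In the male, Mac II stood at 361.6 and 402.2 CPM on plates 1 and 2. The share of cells followed another order. It was 88.9% in the female (24 of 27 cells, 70.8% to 97.6%) and 85% in the male (17 of 20, 62.1% to 96.8%) in Mac II, and 77.3% and 72.6% in Mac III. Neutrophils, at the Tlr2 level of Mac III, had 23.6% (13 of 55, 13.2% to 37%) and 32.1% (25 of 78, 21.9% to 43.6%). Their positive cells held more, with a median of 436 and 272.9 CPM against 158.7 and 176.01 CPM in positive Mac III cells. Neutrophils also had the lower depth, with a median of 616659 and 571915 reads per cell against 1065415 and 1151123.5 in Mac III.

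Tlr1, a partner of Tlr2, was found in Mac IV and was almost missing from Mac III. In Mac IV it stood at 51.9 and 22.2 CPM, and in Mac III at 0.0526 CPM (11 reads) and 0.0297 CPM (7 reads). Pooled over the animals this is a ratio of 878 (exact interval 555 to 1482, counting error alone). Both plates of each animal lay high in Mac IV, at 43.8 and 59.5 CPM in the female and 18.6 and 24.5 CPM in the male. Of Mac IV cells, 49.2% (31 of 63, 36.4% to 62.1%) of the female and 32.9% (26 of 79, 22.7% to 44.4%) of the male had a read. In Mac III no thinned cell of the female had one, where 3 counts would be 1.66% and the exact interval ends at 2.02%, and 2 cells of the male had one (0.962%, 0.117% to 3.43%). Those limits hold for cells with a read at 100000 reads; without thinning 2.75% and 3.37% of Mac III cells had a Tlr1 read. The mean over both animals was higher in T cells, at 135.9 and 3.46 CPM, and basophils, at 72.9 and 9.1 CPM, but there the animals differed widely. In T cells 83% of the reads of the female and 96.4% of those of the male came from 1 cell, whereas in Mac IV the top cell gave 19.1% and 20.3%. With the shared sequencing run alone, the T cells of the female held 33.8 CPM. The ranges of T cells, basophils and Mac IV overlapped.

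Tlr6, the other partner of Tlr2, stood between 12.6 and 46.8 CPM in Mac II to Mac V and neutrophils and was not called between all subtypes. It stood at 22.3 and 46.8 CPM in Mac V, 28.2 and 19.8 CPM in Mac IV, 19.2 and 28.7 CPM in neutrophils, 15.9 and 27.4 CPM in Mac II and 17.8 and 12.6 CPM in Mac III. In DC I it was 0.116 and 11.4 CPM and in DC II 7.81 and 0.168 CPM. In the former 5 subtypes from 17.1% to 29.6% of the cells had a read. Without thinning the share reached 62.5% in the mast cell II cells of the male, where the level was 0.681 CPM, so that single reads of Tlr6 were common in cells with next to no Tlr6. NK cells had 0.243 and 30.7 CPM, and in the male 98.4% of the reads came from 1 cell.

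Cells with both Tlr2 and a partner were counted. In Mac IV, 23 of 63 thinned cells of the female (36.5%) and 14 of 79 of the male (17.7%) had Tlr2 and Tlr1. The product of the separate shares was 29.7% and 15.8%. Tlr2 was read in 74.2% and 53.8% of the Tlr1-positive Mac IV cells. For Tlr2 with Tlr6 in Mac III, 14.4% and 11.5% of the cells had both against products of 13.2% and 14%. A cell without a read may still express the gene, and the genes share each cell's depth.

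Tlr4, the lipopolysaccharide receptor, lay between 26 and 50.2 CPM in 4 subtypes but differed between them cell by cell. It stood at 38 and 47.6 CPM in Mac III, 31.3 and 50.2 CPM in Mac II, 39 and 39.5 CPM in neutrophils and 26 and 34.3 CPM in Mac IV. The ranges of Mac III, Mac II and neutrophils overlapped, and Mac IV lay below neutrophils in both animals. In Mac III 43.6% (36.3% to 51.2%) and 49% (42.1% to 56%) of the cells had a read, and the top cell gave 9.66% and 4.53% of the reads. In neutrophils 14.5% (8 of 55, 6.5% to 26.7%) and 10.3% (8 of 78, 4.53% to 19.2%) had a read, with a median of 191.8 and 295.9 CPM in the positive cells, and the top cell gave 43.9% and 37.8%. The Tlr4 level of Mac V, 18.8 and 4.63 CPM, came to 97.5% and 90.6% from 1 cell in each animal. That of DC II, 26.8 and 19.1 CPM, came to 96% and 100% from 1 cell. In B cells the level was 9.67 and 25.1 CPM, and without the 1 cell of each animal that held at least 3 of 4 markers of a macrophage, monocyte or neutrophil list it was 9.95 and 1.82 CPM.

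The partner Ly96, which holds lipopolysaccharide on Tlr4, was not found with Tlr4 in every subtype. This gene was picked out after its values were seen. It stood at 64.9 and 54.2 CPM in Mac IV, 49.4 and 47.2 CPM in Mac V and 15.3 and 15.8 CPM in Mac III, but at 0 reads and 0.705 CPM in neutrophils. Cd14, which hands lipopolysaccharide to that pair, stood at 1090.1 and 337.999 CPM in neutrophils and 800.3 and 643 CPM in Mac IV.

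Tlr5, the flagellin receptor, was present in 3 subtypes and at the edge of detection elsewhere. It stood at 12 and 12.1 CPM in Mac IV, 14.8 and 4.38 CPM in neutrophils and 5.94 and 7.25 CPM in Mac III. The ranges of Mac IV and neutrophils overlapped, as did those of neutrophils and Mac III. Mac V had 1 read in each animal, B cells 1 read in the female, and the other 10 tested subtypes 0 reads. In Mac IV 12.7% (8 of 63) and 10.1% (8 of 79) of the cells had a read, and 72.5% of the reads of the male came from 1 cell. Neutrophils had 2 positive cells in each animal, and 1 cell gave 86.9% and 69.1% of the reads.

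**Figure D2:**
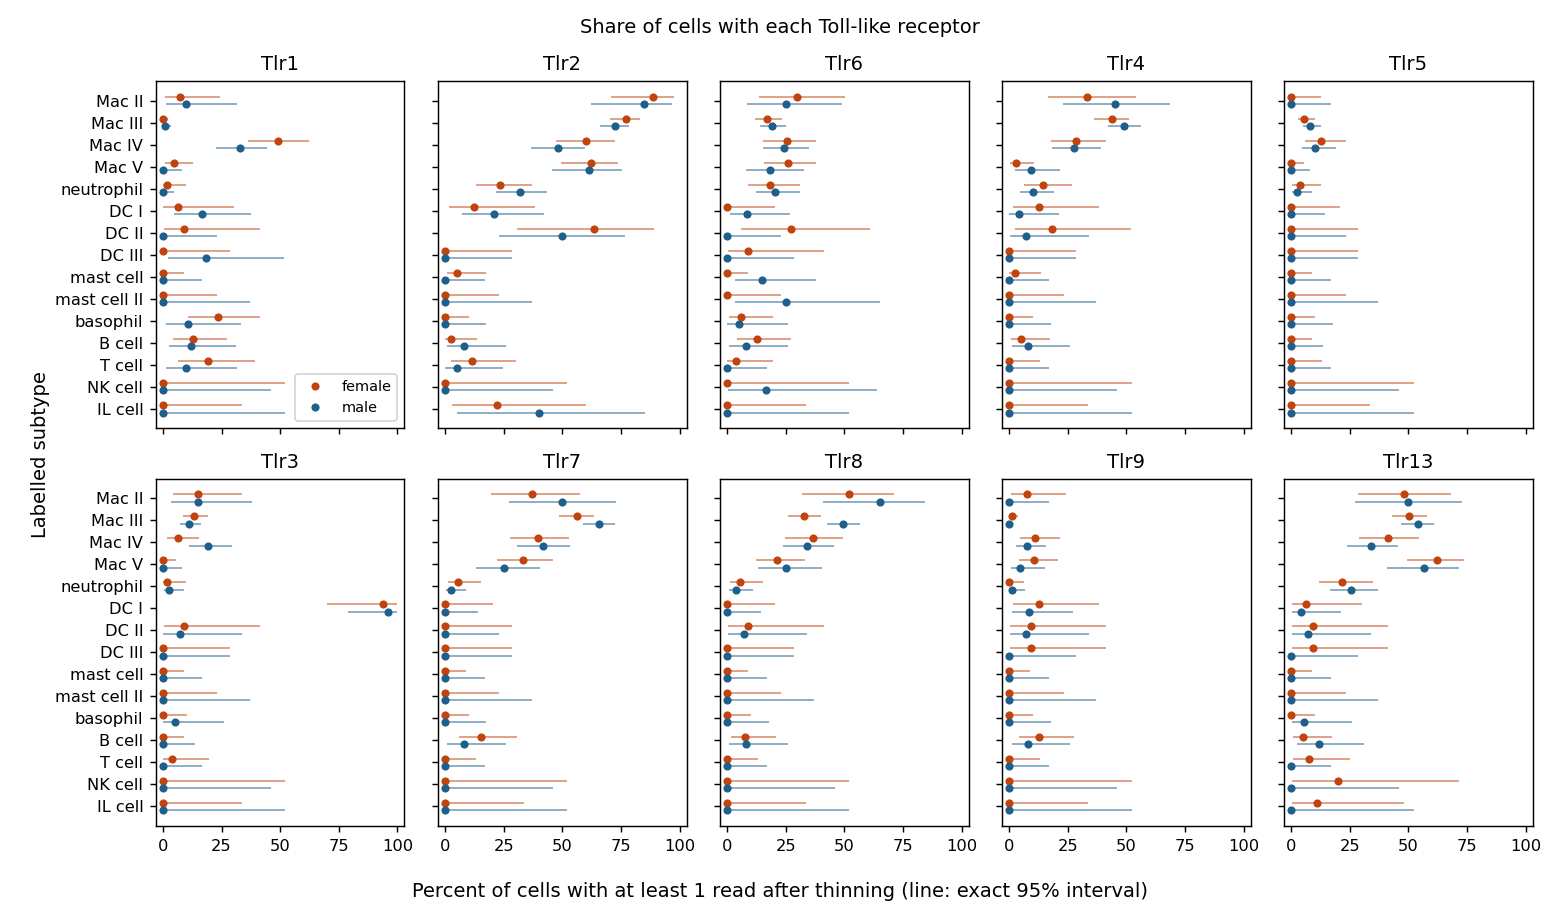
Percent of cells with at least 1 read after thinning to 100000 reads (horizontal axis) by labelled subtype (vertical axis), 1 panel a receptor, with a point for each animal and its exact 95% interval. Tlr3 lies at 93.8% and 95.8% in DC I and under 20% elsewhere, while Tlr2 spreads over the Mac subtypes, neutrophils and DC II.

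Of the nucleic acid receptors, Tlr3 belonged to DC I. Its level was 242.1 and 493 CPM there, and the next subtypes were Mac III at 10.1 CPM in each animal, Mac IV at 3.92 and 14.3 CPM and Mac II at 10.3 and 6.87 CPM. In DC I 15 of 16 cells (93.8%, 69.8% to 99.8%) of the female and 23 of 24 (95.8%, 78.9% to 99.9%) of the male had a read. Both plates of each animal were high, at 187.4 and 342.4 CPM in the female and 518 and 477 CPM in the male. Mac V had 0 reads of Tlr3 in either animal, which sets limits of 0.0359 and 0.0652 CPM. DC I had 0 reads of Tlr7, Tlr8 and Tlr5 in both animals, with limits of 0.116 and 0.0887 CPM. Tlr11, a family member in the table outside these 10, stood at 52.8 and 61.2 CPM in DC I.

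Tlr7 and Tlr8 lie next to each other on the X chromosome, and both marked the macrophage and monocyte labels. Tlr7 stood at 62.2 and 80.7 CPM in Mac III, 37.8 and 73.3 CPM in Mac II, 69.4 and 33.4 CPM in Mac V and 29.7 and 49.9 CPM in Mac IV, with overlapping ranges from each to the next. B cells had 17 and 5.91 CPM and neutrophils 4.88 and 4.61 CPM. The share of cells was 56.4% (48.8% to 63.7%) and 65.9% (59% to 72.3%) in Mac III, 33.3% and 25% in Mac V and 5.45% and 2.56% in neutrophils. The highest mean of Tlr8 was in Mac II, at 44.1 and 123.5 CPM, ahead of Mac V at 39.9 and 40.9 CPM, Mac IV at 47.5 and 32.1 CPM and Mac III at 19.5 and 43 CPM. The range of Mac II did not overlap that of Mac V but did overlap that of Mac IV. On plate 1 of the female, Tlr8 stood at 19.4 CPM in Mac II and 66.3 CPM in Mac V. On plate 2 of the female it stood at 52.3 and 14.9 CPM. In Mac II 51.9% (14 of 27) and 65% (13 of 20) of the cells had a Tlr8 read. In Mac III cells with both Tlr7 and Tlr8 made up 16.6% and 33.2%, against products of 18.4% and 32.6%.

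Tlr9, the DNA receptor, was low in every subtype. The highest means were in B cells, at 8.12 and 21.2 CPM, and DC III, at 24.3 CPM in the female and 0 reads in the male. In the B cells of the male 91.1% of the reads came from 1 cell, and in DC III of the female 99.2%. In Mac V it stood at 11.9 and 3.35 CPM and in Mac IV at 9.29 and 3.89 CPM, and in Mac III at 0.0573 CPM (12 reads) and 0.00425 CPM (1 read). Of B cells, 5 of 39 (12.8%, 4.3% to 27.4%) and 2 of 25 (8%, 0.984% to 26%) had a read. Ranges overlapped from B cells down through DC III, Mac V and Mac IV.

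Tlr13, the receptor of bacterial ribosomal RNA, was highest in Mac V. It stood there at 141.3 and 207.6 CPM, above neutrophils at 76.5 and 57.3 CPM, Mac II at 48.1 and 81.8 CPM, Mac III at 63.6 and 56.5 CPM and Mac IV at 68.7 and 35.6 CPM. The ranges of these other 4 overlapped from each to the next and lay below Mac V in both animals. Of Mac V cells 62.1% (41 of 66, 49.3% to 73.8%) and 56.8% (25 of 44, 41% to 71.7%) had a read. Within Mac V, cells in which the monocyte gene Ly6c2 or the gene Ace of patrolling monocytes was higher were set side by side as values alone. Tlr7 stood at 128.4 and 76.8 CPM in Ace-higher cells and 21.7 and 18.3 CPM in Ly6c2-higher cells, and Tlr2 at 143.1 and 42.4 CPM against 224.98 and 203.1 CPM. Tlr7 was thus higher with Ace and Tlr2 with Ly6c2 in both animals, over 34 and 14 Ace-higher and 27 and 25 Ly6c2-higher cells. Tlr13 stood at 227.02 and 249.4 CPM against 83.3 and 185.4 CPM. Its share of cells with a read went opposite ways in the animals, at 70.6% and 42.9% against 48.1% and 66.7%. Tlr8 went opposite ways in the animals, at 78.4 and 7.52 CPM against 14.7 and 58.7 CPM. Neutrophils with the immature-granule gene Ngp at 50 CPM or more, 9 and 20 cells, had Tlr4 at 16.2 and 0.764 CPM, against 48 and 60.3 CPM in the 47 and 58 other neutrophils. After thinning, 1 of 9 and 1 of 20 of the former had a Tlr4 read, and 7 of 46 and 7 of 58 of the others. These levels thus rest on few cells.

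**Figure D3:**
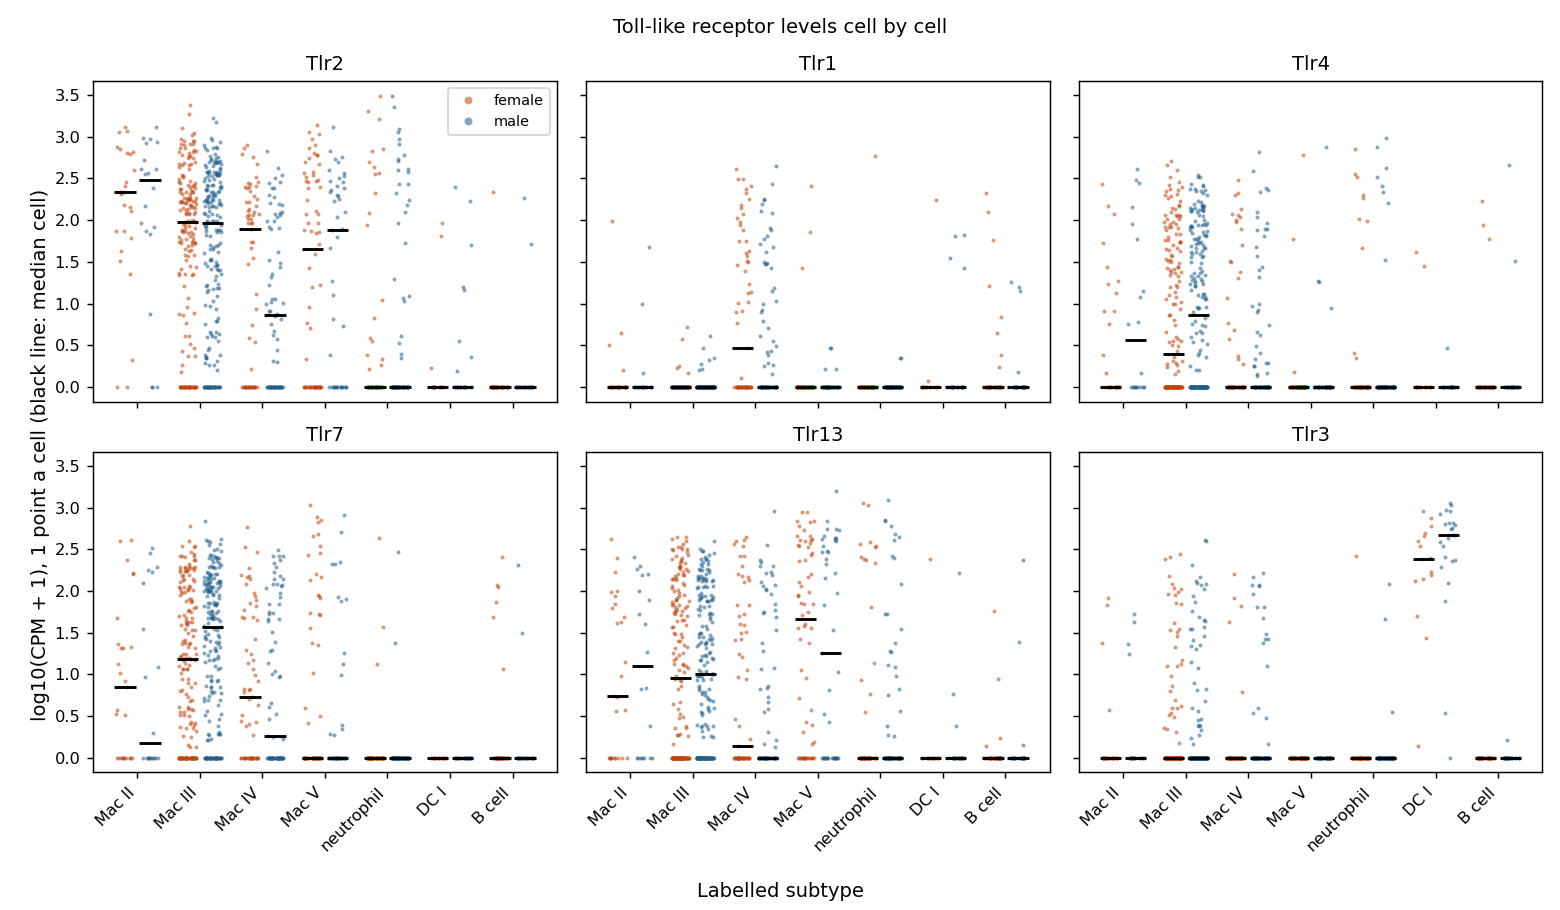
Level of 6 receptors in single cells, as log10(CPM + 1) without thinning (vertical axis), by labelled subtype and animal, 1 point a cell, with a black line at the median cell. Tlr2 in neutrophils and Tlr4 in Mac V show a few high cells over many at 0, whereas DC I cells lie high for Tlr3 as a group.

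Receptors were then compared with each other per kilobase of exon, with exon lengths from GENCODE M21. Tlr2 ranked first in both animals in Mac II, Mac III, Mac IV, Mac V, neutrophils, DC II and IL cells. It made up 70.3% and 58.3% of the summed length-scaled level of the 10 receptors in Mac II, 56.4% and 49.5% in Mac III, 41.4% and 28.6% in Mac IV, 44.9% and 39.7% in Mac V, 63% and 63.1% in neutrophils and 83.1% and 85.7% in DC II. Tlr3 made up 82.2% and 86.8% in DC I. The sum was 162.4 and 216.3 CPM per kilobase in Mac II and 0.632 and 0.133 in mast cells. The second receptor was Tlr13 in Mac V and neutrophils, Tlr7 in Mac III and Tlr8 in Mac II, in both animals.

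**Figure D4:**
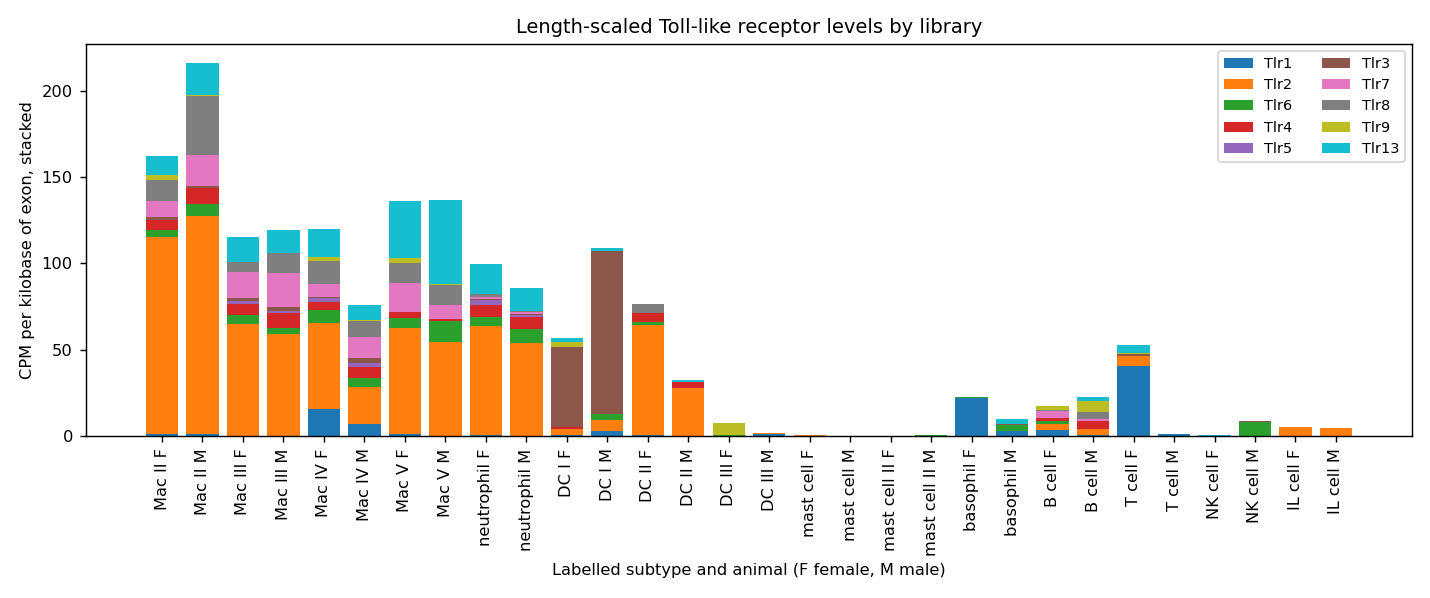
Length-scaled level of the 10 receptors, stacked, as CPM per kilobase of exon (vertical axis) in the 30 libraries (horizontal axis). Tlr2 is the largest segment of the Mac, neutrophil and DC II bars, from 28.6% in Mac IV of the male to 85.7% in DC II of the male, Tlr3 is the largest of the DC I bars, and mast cell bars are near 0.

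The number of receptors read in a cell also differed between subtypes. The median after thinning was 3 in Mac III and Mac IV in both animals, 3 and 3.5 in Mac II, 2 in Mac V, 1 in neutrophils and 0 in T cells, mast cells and basophils. None of the 10 was read in 2.76% (5 cells) and 0.481% (1 cell) of Mac III cells. In neutrophils it was 38.2% (21 of 55, 25.4% to 52.3%) and 30.8% (24 of 78, 20.8% to 42.2%), and in mast cells 92.3% (36 of 39) and 85% (17 of 20). At least 3 were read in 64.6% and 74.5% of Mac III cells and in 7.27% and 5.13% of neutrophils.

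Of 5 pairs of subtypes compared, 3 gave a called receptor, and none of these 4 calls held in the fit of all 15 subtypes, where the biological coefficient of variation was 1.15. The tests below had only the 2 subtypes of a pair in the fit (4 libraries, 2 animals each), adjusted over all genes tested. Between Mac III and Mac IV, Tlr1 and Tlr9 were higher in Mac IV. Tlr1 had a log2 fold change, Mac III over Mac IV, of -9.76 ± 0.84 (SE) and an adjusted p of 0.0036 by edgeR. Tlr9 had -7.69 ± 1.76 and an adjusted p of 0.0471. The 2 calls among 10 members stand beside 12% of all 14304 genes tested, split into 5.26% higher in Mac III and 6.7% in Mac IV. Tlr1 kept its call in 7 of 8 alternatives and without any 1 of the 4 libraries. In the fit of all subtypes its adjusted p was 0.42 and that of Tlr9 0.614. Tlr9 kept its call in 4 of 8 alternatives and lost it without the female Mac III library (0.0624) and without the male one (0.173).

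Between Mac IV and Mac V, Tlr5 was higher in Mac IV, with a log2 fold change of 9.35 ± 1.83 (SE) and an adjusted p of 0.046 by edgeR. Mac V had 1 read in each animal, so the size of that fold rests on 2 reads. The ratio of pooled CPM was 782, with an exact interval of 216.1 to 6457. The call, 1 of 10 members, stands beside 4.37% of all genes, split into 2.31% higher in Mac IV and 2.07% in Mac V. Adjusted p was 0.107 with the animal as replicate block, 0.0695 in the shared sequencing run, 0.0527 with thinned cells, 0.359 with all subtypes in the fit, 0.253 without the female Mac IV library and 0.267 without the male one. Tlr13, higher in Mac V in both animals, had -1.81 ± 0.45 and missed the threshold with an adjusted p of 0.0763. It passed in the shared sequencing run (0.0469), with thinned cells (0.0312), with DESeq2 (0.00279) and without the female Mac V library (0.0266), and had 0.937 with all subtypes in the fit. Tlr3, with 0 reads in Mac V, had an adjusted p of 0.0693.

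Between Mac V and neutrophils 0 of 10 members were called by edgeR, 3 had an unadjusted p under 0.05 and DESeq2 called 4. The test called 0.846% of all genes, 0.192% higher in Mac V and 0.654% in neutrophils. Those 3 were Tlr5 (adjusted p 0.179), Tlr3 (0.193) and Tlr7 (0.249). Tlr5 and Tlr3 lay higher in neutrophils, against 1 read of Tlr5 in each animal and 0 reads of Tlr3 in Mac V. The fold of Tlr5 thus rests on single reads, and that of Tlr3 on the model's prior. Tlr7 lay higher in Mac V, with a log2 fold change of 2.89 ± 1.05 (SE). Next came Tlr8 at 3.11 ± 1.28 (adjusted p 0.297) and Tlr4 at -2.29 ± 1.06 (0.357).

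Between the dendritic cells DC I and DC II, Tlr3 was higher in DC I, with a log2 fold change of 8.8 ± 0.82 (SE) and an adjusted p of 0.00922 by edgeR. DC II had 15 and 12 reads, 1.14 and 0.673 CPM, and the pooled ratio was 441 (exact interval 303.3 to 670.01). Of 7 members that passed the filter 1 was called, beside 0.411% of all genes, split into 0.112% higher in DC I and 0.299% in DC II. The call held in 7 of 9 alternatives and without any 1 of the 4 libraries. It was lost with all subtypes in the fit (adjusted p 0.367) and in the shared sequencing run, where the female had 4 DC I cells (0.0935). Tlr2 lay higher in DC II, by -3.05 ± 0.84, and missed the threshold (adjusted p 0.395).

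Between B cells and T cells 0 of 8 members tested were called by edgeR, 1 had an unadjusted p under 0.05 and DESeq2 called 1. The test called 1.1% of all genes, 0.74% higher in B cells and 0.357% in T cells. Tlr4 had the largest fitted difference, 8.99 ± 2.63 (SE, adjusted p 0.251), and Tlr7 had 5.44 ± 2.37 (0.445). T cells had 2 reads of Tlr4 in the female and 0 in the male, so the size of that fold rests on counts near 0. Without the 1 marked cell of each animal, Tlr4 in B cells went from 9.67 to 9.95 CPM in the female and from 25.1 to 1.82 CPM in the male. On simulated counts, 8-fold differences were called in 76% of genes for Mac III against Mac IV, 40% for Mac IV against Mac V and 18% to 26% for the other 3 pairs, so a missed threshold does not show equal levels. In the test of all subtypes, with a single subtype changed, 0% were called at 8-fold and 12% at 32-fold. The changed genes were not drawn from those with the lowest levels, so these rates do not cover receptors near 0.

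**Figure D5:**
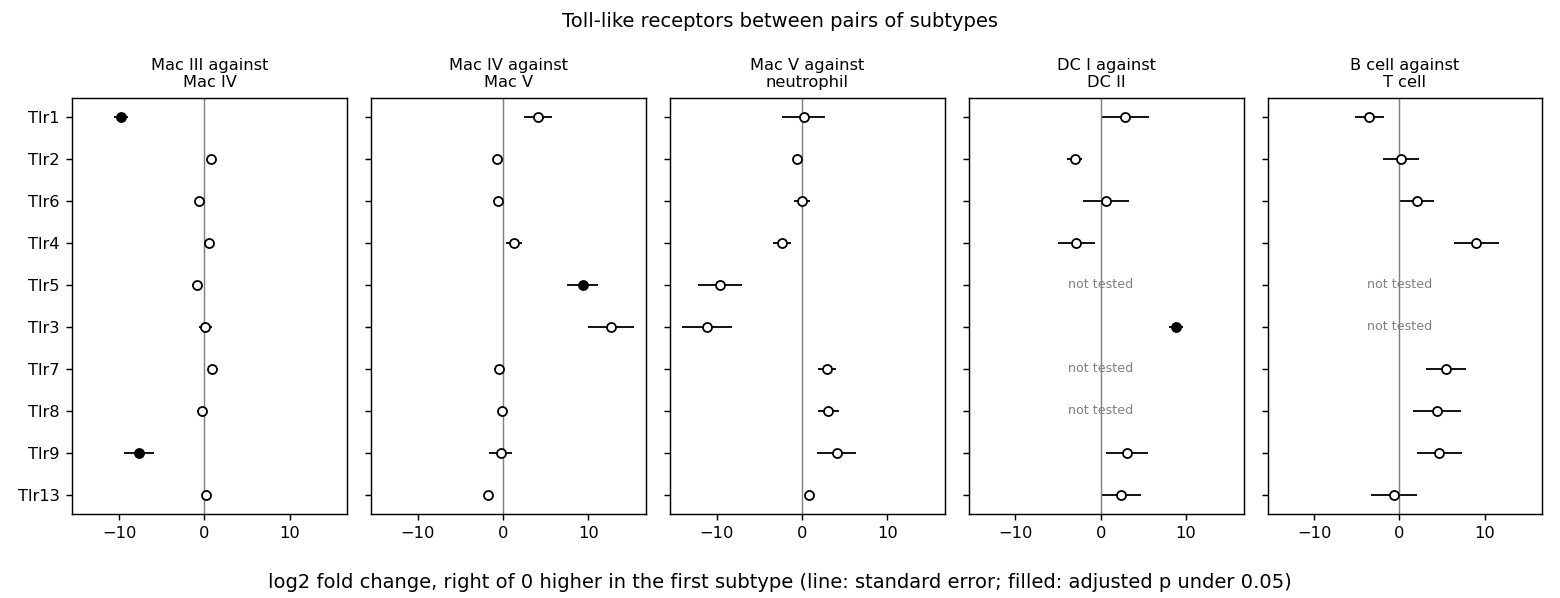
Fitted log2 fold change of each receptor (horizontal axis, with its standard error as a line) in 5 comparisons of 2 subtypes, 1 panel each; right of 0 is higher in the first subtype and filled points passed an adjusted p of 0.05. The filled points are Tlr1 and Tlr9 in Mac III against Mac IV, Tlr5 in Mac IV against Mac V and Tlr3 in DC I against DC II.

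Other genes of the pathway were taken from a list of 40: co-receptors, chaperones, adaptors, kinases and ubiquitin ligases, transcription factors and inhibitors. Between all subtypes 16 of 40 were called (40%, beside 34.3% of all genes), 5 of them among the 6 co-receptors. Between Mac III and Mac IV 14 of 39 were called (35.9%, beside 12% of all genes), of which 10 lay higher in Mac IV and 4 in Mac III. The 10 included 5 of 6 co-receptors and 2 of 4 chaperones. Higher in Mac IV were Ly86, which partners the receptor homologue Cd180, at 808 and 1121 CPM against 26.7 and 11.9 CPM in Mac III, Irf7, a transcription factor of interferon genes, at 41.2 and 94.3 CPM against 0.631 and 2.09 CPM, and Unc93b1, the carrier of endosomal receptors, at 1081 and 673 CPM against 176.7 and 152.7 CPM. Higher in Mac III were Tollip, an inhibitor, at 76 and 59.7 CPM against 24.9 and 22 CPM, Ikbkb, a kinase that releases NF-κB, at 144.3 and 148.7 CPM against 69.7 and 53.6 CPM, and Irak2, a kinase below Myd88, at 101.1 and 101.9 CPM against 50.7 and 35.7 CPM. Adjusted p by edgeR was 0.00442 for Ly86, 0.0159 for Irf7, 0.00979 for Unc93b1, 0.0305 for Tollip and Ikbkb and 0.0418 for Irak2. No call on the list held here with all subtypes in the fit. Irak2 kept its call in 5 of 8 alternatives, Tollip in 6 of 8, and Ikbkb, Ly86, Irf7 and Unc93b1 in 7 of 8 each. In the shared sequencing run 9 of 39 were called, with 8 higher in Mac IV and 1 in Mac III. The median log2 fold change, Mac III over Mac IV, was -0.21 over the list, -0.08 over the members and -0.01 over all genes.

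In the other pairs fewer of the list were called. Between Mac IV and Mac V it was 2 of 39 (5.13%, near the 4.37% of all genes). Cd36, a scavenger receptor that works with Tlr2, was higher in Mac IV at 653 and 469 CPM against 110.8 and 161.1 CPM (adjusted p 0.0399), and Ikbkb was higher in Mac V at 491 and 422 CPM (0.0117). Neither call held with all subtypes in the fit. Between Mac V and neutrophils 0 of 39 were called and between DC I and DC II 0 of 37, by edgeR; 12 and 6 had an unadjusted p under 0.05, and DESeq2 called 10 and 5. Between B cells and T cells 4 of 38 were called (10.5%, beside 1.1% of all genes), all higher in B cells, and 1 gene of the list was called with all subtypes in the fit. They included Cd180 at 130.3 and 119.2 CPM against 0.27 CPM and 0 reads, Ly86 at 502 and 751 CPM against 0.945 and 6.7 CPM and Cd36 at 412 and 58.1 CPM against 0.054 CPM and 0 reads.

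Genes with the most similar pattern were found by Pearson r of log2(CPM + 1), averaged over the animals, across the 15 subtypes among 14270 genes, as a description. Every point, a subtype, shares its 2 animals with all others. The gene closest to Tlr7 was Tlr8 (r = 0.96), and the closest to Tlr6 was Tlr13 (0.92). Tlr8 was closest to Trem2 (0.97), a lipid receptor of macrophages. For Tlr2 the first 3 were Pfkfb4 (0.96), Gda (0.94) and the co-receptor Cd14 (0.93), and for Tlr4 the first was Slc15a3 (0.96). Tlr5 was closest to Dysf (0.96), Tlr13 to Bst1 (0.95), Tlr3 to Pianp (0.93), Tlr9 to Cdkn2b (0.84) and Tlr1 to Wisp1 (0.81). Tlr1 followed Tlr2 with r = 0.01 and Tlr6 with r = 0.21, while Tlr2 followed Tlr4 with r = 0.90.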

How the data were processed

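Raw read counts per gene and cell were used as the authors deposited them. The submitters' processing notes name STAR 2.5.2b, HTSeq 0.10 and the build GRCh38, a human build, although the samples and gene symbols are those of mouse; which annotation was counted is not given in the sources used here. Exon lengths came from GENCODE M21 and may differ from the counted models. Tlr1 and Tlr6 are close paralogs, and how reads shared by them were assigned is not given. No molecular identifiers are named, so reads copied from the same molecule were counted separately, and intervals cover counting error alone. Depth per cell was 16753 to 7560179 reads.

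Cells were grouped by the labelled subtype and animal, and counts were summed. Cells of 1 animal are not replicates, so n = 2. edgeR 4.0.16 (R 4.3.3) was run with TMM, filterByExpr and the quasi-likelihood F test. Pairs were fitted with their own 4 libraries, because sums over few and over many cells need not share a spread (coefficient of variation 0.685 to 1.06 in the pairs, 1.15 in all), and the fit of all 15 subtypes was an alternative. Other alternatives were DESeq2 1.42.0, RLE size factors, no filter, the animal as block, thinned cells, CD45 plates, the sequencing run shared by both animals and leaving out libraries. The same animal gave libraries of every subtype, which pairs them by design; deviations of the same animal correlated between subtypes with a median r of 0.028 (-0.060 to 0.081). Thinning (seed 7) left out 5 cells. Sorted cells were not run through a doublet caller. The fit was tested on simulated data. The members and gene lists were chosen with earlier results of these data known. All 10 members are named; of the pathway list, in each direction of a pair, at most 3 called genes with the largest fold are named, if both animals moved alike and the higher subtype had 50 CPM or more; and per member up to 3 genes by r.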

Additional observations from a re-analysis of the deposited data

Results flagged for a closer look

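Tlr6 differed in opposite directions between DC I and DC II in the animals. The difference in log2(CPM + 1), DC I minus DC II, was -2.98 in the female and 3.41 in the male, and the difference between the animals was not tested. In the female 95.1% of the Tlr6 reads of DC II came from 1 cell, and in the male 79% of those of DC I. Tlr13 did likewise between B cells and T cells, with B cell minus T cell at -3.14 in the female and 3.73 in the male, also not tested. Of its reads, 68.1% in the T cells of the female and 90.2% in the B cells of the male came from 1 cell.

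The single Mac I cell, from the male, entered no comparison. It had 2440163 reads, with Tlr8 at 58.6 CPM, Tlr2 at 43 CPM and Tlr4 at 6.97 CPM, and 0 reads of Tlr7 and Tlr13.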

How the results depend on the processing

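Between all subtypes 7 to 10 members were called under every alternative run, and 8 to 9 without any 1 of the Mac III, Mac IV and DC I libraries, with 24% to 30.8% of all genes called; leaving out the other libraries of that fit was not run. With all 15 subtypes in the fit, members called fell to 0 in Mac III against Mac IV, Mac IV against Mac V and DC I against DC II, and the percent of all genes called to 0.263, 0.167, 0.404, 0.244 and 0.0962 in the 5 pairs as ordered in the text. With DESeq2 members called were 4 in Mac IV against Mac V, 4 in Mac V against neutrophil, 2 in DC I against DC II and 1 in B cell against T cell, and the percent of genes 27.3, 20.8, 13.2, 4.84 and 7.67 in the 5 pairs. With no filter members called were 1 in Mac III against Mac IV and 2 in Mac IV against Mac V, and the percent of genes 1.91 in Mac V against neutrophil, 1.82 in DC I against DC II and 3.12 in B cell against T cell. In the shared run members were 1 in Mac III against Mac IV and 0 in DC I against DC II, and the percent of genes 0.45 in Mac V against neutrophil and 0.0912 in DC I against DC II. With thinned cells members were 1 in Mac III against Mac IV, and the percent of genes 19.3, 7.84, 3.31, 0.661 and 2.47 in the 5 pairs. In Mac IV against Mac V, 1 member was called in the shared run and with thinned cells, but it was Tlr13, higher in Mac V, in place of Tlr5. With the animal as replicate block members called fell to 0 in Mac IV against Mac V, where Tlr5 lost its call, and the block changed no other call of a member. The cause was not tested.

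Without 1 library, members called ran from 1 to 3, 0 to 4, 0 to 0, 1 to 1 and 0 to 0 in the 5 pairs, and the percent of genes from 6.03 to 28, 1.22 to 11.1, 0.664 to 7.004, 0.704 to 0.963 and 1.31 to 2.41. In Mac III against Mac IV members were 1 without either Mac III library and 3 without either Mac IV library. In Mac IV against Mac V they were 0 without either Mac IV library, 4 without the female and 2 without the male Mac V library. For all genes, the highest values came without Mac IV F, Mac V F, neutrophil M, DC II M and T cell F, in the order of the pairs. A lone library is then assumed to vary like the others. No called fold changed sign.

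Leaving out cells with markers of other types, and leaving out NK cell, IL cell and mast cell II, were added after the data were seen. Of 20 shares, those that moved out of their interval numbered 3 with at least 2 reads required, 8 without thinning and 3 at 300000 reads. Depth limits the rare receptors most, since 1 read after thinning is 10 CPM.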
